A study of Equus caballus with 4 samples.

Results

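Leukocytes enter a skin tumour from the blood or live in the skin already, and each kind makes proteins whose transcripts can mark it in tissue RNA. A set of 8 genes of leukocytes and of antigen presentation was followed here in equine sarcoids, fibroblastic tumours of horse skin. They were CSF1R of macrophages, CD2 of T cells, KLRD1 of natural killer cells, TNFRSF13C of B cells, TPSB2 and FCER1A of mast cells, and B2M and DRA of the MHC class I and class II molecules that present peptides to T cells. All array probes whose RefSeq transcript belongs to one of these genes were taken, without regard to signal. That gave 11 of the 43603 probes and 8 of the 1031 genes that could be named on the array. Of the 8 genes, 3 (B2M, FCER1A and KLRD1) had 2 probes each and 5 had 1 probe. All 11 probes passed the filter on dim signals.

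Macrophages depend on the CSF1 receptor, while T cells and natural killer cells recognise other cells through receptors of which CD2 and the KLRD1 product CD94 are parts. MHC class I molecules, with B2M as their light chain, are carried by nearly all nucleated cells and show them to cytotoxic T cells. MHC class II molecules, whose DR alpha chain is the product of DRA, are carried by dendritic cells, macrophages and B cells, among other cells. Mast cells reside in normal dermis, hold tryptase in their granules and bind IgE through the receptor whose alpha chain is FCER1A.

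The samples were sarcoids of 4 horses (Equus caballus) and skin of the same 4 horses taken away from the tumour. Breed, age, sarcoid type and treatment of the horses are not given in the labels used here. Each horse had 1 two-colour array. The sarcoid always carried Cy3 and the skin sample Cy5, with no dye swap, so a dye effect of a probe is part of each of its ratios. The 4 arrays shared 1 slide and 1 scan day, and their number limits the precision. The descriptions of 3 samples also mention embryonic stem cells, which contradicts their tissue and horse labels, and the latter were used. Markers of the 2 tissues went in the direction of their labels. Of 9 fibroblast genes measured all 9 rose in the sarcoids (median log2 ratio 2.22), and of 4 keratinocyte genes all 4 fell (median -5.12). The lists were chosen with earlier results of these data known, so they are no independent check of the labels. Because whole tissue was measured, fewer cells of a type and less RNA per cell cannot be told apart in any value below.

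Levels are given as normalized log2 intensities of a probe in 1 tissue, and differences as log2 ratios of sarcoid over skin within a horse, where 1 means a doubling. The levels were not scaled between arrays, whose median level over both channels lay between 8.25 and 8.48. A gene was called when its limma p-value, adjusted by Benjamini-Hochberg over all 19607 targets tested, was under 0.05. Spots repeated on 1 array (50 probes) had a median SD of 0.07 to 0.09 in the log2 ratio, far under the spread between horses of most of the 8 genes.

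CSF1R was the only one of the 8 genes called, and it rose in the sarcoids of all 4 horses by 2.36-fold on average. The other 7 were not called: CD2, KLRD1, DRA and TNFRSF13C had mean ratios above 0, and B2M, TPSB2 and FCER1A below 0. Across the array 15.7% of the targets were called, 5.84% as higher and 9.9% as lower, so 1 higher and 0 lower calls among 8 genes are near the background. After dye correction the ratio was above 0 in all 4 horses for CSF1R and KLRD1, which held for 17.8% of all targets. It was below 0 in all 4 horses for 0 of the 8 genes, against 22.7% of all targets. The SD over horses of DRA, TPSB2 and FCER1A lay above the 90th percentile of all targets, which was 0.79.

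**Figure D1:**
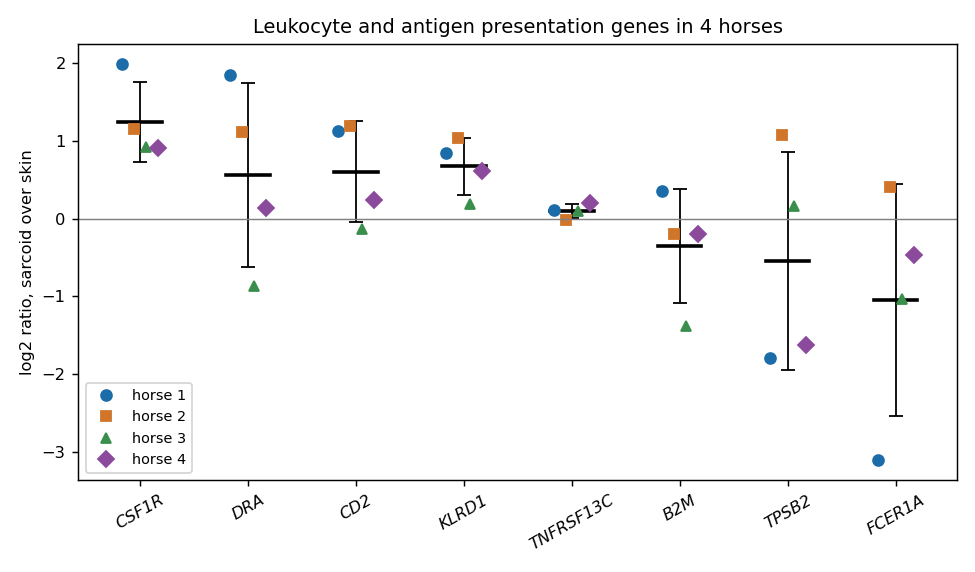
Log2 ratio of sarcoid over skin (y axis) of the 8 genes (x axis), with 1 symbol per horse and the mean and SD of the 4 horses as a black bar and whiskers. All 4 ratios of CSF1R and KLRD1 lie above 0, while TPSB2 and FCER1A spread from 1.08 to -1.79 and from 0.41 to -3.10.

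CSF1R encodes the receptor for colony stimulating factor 1, on which monocytes and macrophages depend. Its level was 10.20, 9.51, 9.72 and 8.97 in the sarcoids of horses 1 to 4, and 8.21, 8.36, 8.80 and 8.07 in their skin. The lowest sarcoid, of horse 4, lay above the highest skin sample, of horse 3, so the groups did not overlap after the dye correction. Before that correction the signal over local background was 306.5 for that sarcoid and 458 for that skin sample. Across the array 7.1% of all targets had all sarcoid levels above all skin levels, and 12.6% had them below. The log2 ratio was 1.99, 1.14, 0.92 and 0.90, with a mean of 1.24 ± 0.51 (SD, n = 4; 95% interval 0.69 to 1.78; limma adjusted p = 0.0199). Horse 1 had the largest ratio, and the other 3 horses lay close together. It rests on 1 probe, and the call was lost without horse 2 (ratio 1.27, limma adjusted p = 0.0674) and without horse 3 (ratio 1.34, limma adjusted p = 0.0502). It was also lost when the background model was fitted on all spots, outliers included, where the ratios of the 4 horses were 1.99, 0.54, 0.20 and 0.90 (mean 0.91, limma adjusted p = 0.265), and on median centring in place of loess (ratio 1.0, limma adjusted p = 0.0762).

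The ratio of horse 4 rests on the normalization more than that of the others. Its CSF1R spot had a signal of 306.5 over local background in the sarcoid channel and 368.5 in the skin channel, a log2 ratio of -0.37 before loess, and the array's dye correction at that intensity added 1.27. The same correction moved the ratio by -0.12 in horse 1. KLRD1, described next to the natural killer genes, was alike in this. By its brighter probe the ratio went from -0.62 to 0.61 by loess in horse 4, and from -0.05 to 0.19 in horse 3. The other probe went from -0.44 to 0.79 in horse 4. In horse 3 that probe was above 0 already before loess (0.26 to 0.47). The KLRD1 ratio above 0 in all 4 horses, and that of CSF1R, thus hold only after the dye correction. Loess also moved other genes from below to above 0. In horse 4 these were DRA (-1.06 to 0.13), CD2 (-0.82 to 0.24) and TNFRSF13C (-0.58 to 0.20). In horse 3 they were TPSB2 (-0.33 to 0.17) and TNFRSF13C (-0.19 to 0.10), and in horse 2 FCER1A (-0.46 to 0.41). Over all probes the median shift by loess was -0.07, 0.56, 0.30 and 1.07 for horses 1 to 4. The sarcoid channel of horse 4 was the dimmest of the 8 channels, with a median spot signal of 113.5 against 236 for the skin on that array.

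Of 8 genes on a list of macrophage and dendritic cell markers that could be tested, 2 rose (CSF1R and CD40), none fell and 6 were not called. CD40, a costimulatory receptor of dendritic cells, macrophages and B cells, had ratios of 0.59, 0.46, 0.69 and 1.16 (mean 0.72 ± 0.31, SD, n = 4; limma adjusted p = 0.0346). That call was lost with any of the 4 horses left out (ratio 0.58 to 0.81, limma adjusted p from 0.066 to 0.104). It was also lost with the background fitted on all spots (ratio 0.51, limma adjusted p = 0.288) and on median centring (ratio 0.48, limma adjusted p = 0.0897). CD14, the monocyte coreceptor for lipopolysaccharide, was at 2.17, 1.70 and 1.11 in horses 1, 2 and 4 and at -0.40 in horse 3 (mean 1.14 ± 1.12, limma adjusted p = 0.141). CD1C, a lipid-presenting molecule of dendritic cells, was at -0.23 ± 0.48. The median of the list was 0.28, against 0.00 over all targets tested.

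By root mean square difference over the 4 horses, the genes with a symbol whose ratios were nearest to those of CSF1R, among 790 compared, were ISLR (difference 0.25), CYP2C110 (0.25) and COL15A1 (0.33). ISLR had ratios of 2.23, 1.09, 0.51 and 0.76 in horses 1 to 4. COL15A1, the alpha chain of a basement membrane collagen, had ratios of 1.39, 1.1, 1.04 and 0.63.

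KLRD1 encodes CD94, which pairs with NKG2 proteins into receptors of natural killer cells and some T cells. Its brighter probe had a sarcoid level of 7.08, 7.29, 6.66 and 8.36 in horses 1 to 4 and a skin level of 6.25, 6.25, 6.47 and 7.74. Horse 4 had the highest level in both tissues, and the sarcoid lay above the skin in each horse. Ratios of 0.84, 1.03, 0.19 and 0.61 resulted (mean 0.67 ± 0.36, SD, n = 4; 95% interval 0.24 to 1.1; limma adjusted p = 0.0561), just outside the threshold. The other probe was at 0.91, 1.21, 0.47 and 0.79 (mean 0.85 ± 0.31) and was called when each probe was tested on its own (limma adjusted p = 0.0204). In that test 18.2% of 33864 probes were called, 6.97% as higher and 11.2% as lower, and of the 11 probes 2 were called, both as higher. The 2 KLRD1 probes differed by 0.07 to 0.27 within a horse and gave the same order of horses. The call of the second was lost without horse 1, 2 or 4.

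The skin signal of KLRD1 was close to that of the array's negative control spots. In the skin of horses 1 to 3 the 2 probes had signals of 16 to 45.5 over local background, while the 95th percentile of 153 negative control spots was 15 to 16 on those arrays. In horse 4 they had 249.5 and 280.5, against 22.7. The second probe was well above background in the skin on 2 of 4 arrays and the brighter probe on 3 of 4, while both were so in all 4 sarcoids. The sarcoid signals were also near the negative controls, at 1.77 to 4.93 times their median by the second probe and 1.74 to 4.77 by the brighter. In the skin the same multiples were 1.88 to 18.5 and 2.41 to 20.8. The background flags are thus no reading of presence in 1 tissue and absence in the other. The size of the KLRD1 ratio moved with the background treatment: the mean of the brighter probe was 0.95 with a smaller offset of 16 (limma adjusted p = 0.0428) and 0.40 with the background fitted on all spots (limma adjusted p = 0.323). With Agilent's processed signals, where both the background and the dye correction are different, it was 1.89 (limma adjusted p = 0.0305).

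**Figure D2:**
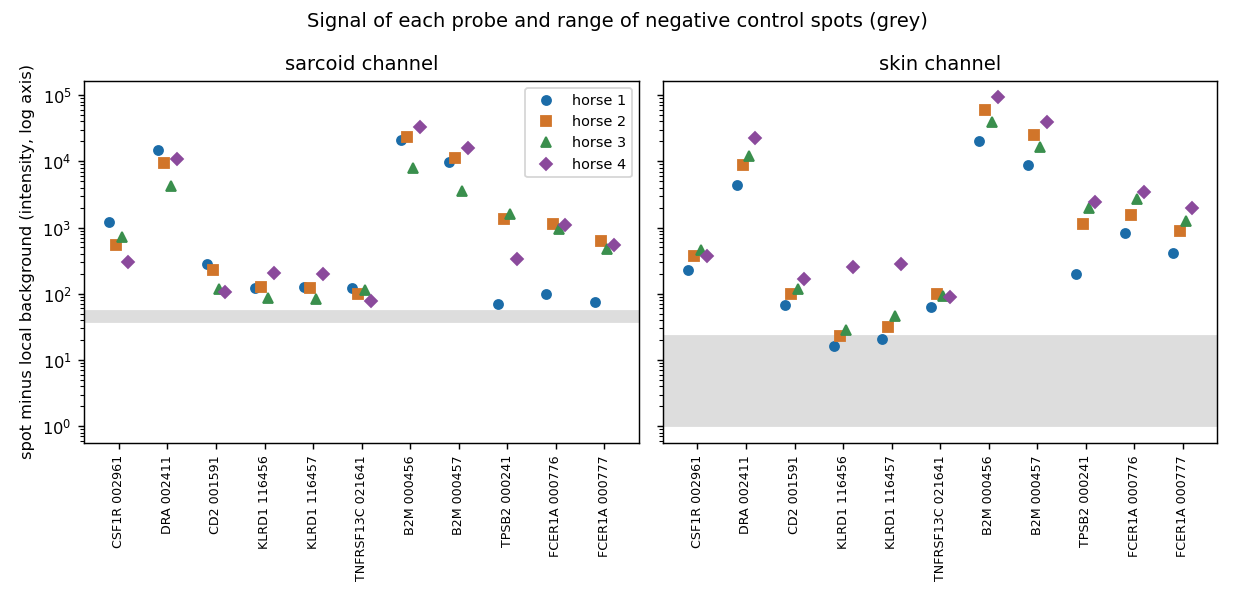
Spot signal minus local background (y axis, log scale) of the 11 probes (x axis, gene and last digits of the probe name) in the sarcoid channel (left) and the skin channel (right), 1 symbol per horse; grey marks the lowest 5th to the highest 95th percentile of the negative control spots over the 4 arrays. The skin values of KLRD1 reach down to 16, inside the grey range, while B2M lies between 3526 and 92250.

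CD2 is an adhesion receptor of T cells and natural killer cells. Its sarcoid level was 8.13, 8.19, 7.12 and 7.44 in horses 1 to 4, and its skin level was 7.01, 7.0, 7.25 and 7.21. The sarcoids of horses 1, 2 and 4 stood above all skin samples, that of horse 4 by the least, and the sarcoid of horse 3 fell within the skin range. In log2 ratios this was 1.12, 1.19, -0.13 and 0.24 (mean 0.60 ± 0.65, SD, n = 4; 95% interval -0.06 to 1.27; limma adjusted p = 0.195). CD2 was not called under any alternative setting (limma adjusted p from 0.0987 to 0.465).

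Of 4 T cell genes that could be tested none was called, and their median ratio was 0.09. CD247, the zeta chain of the T cell receptor complex, was at 0.08, 0.95, -0.90 and 0.78 in horses 1 to 4. CD28 and IL2RA were dimmer than the filter allowed. Of 4 natural killer and cytotoxic genes tested none was called either (median -0.16). KLRF1 and NCR1 of that list were on the array but could not be tested. GZMB, the cytotoxic protease granzyme B, ranged from 2.78 in horse 2 to -2.16 in horse 3, and GNLY, the granule protein granulysin, was at -0.43 ± 0.38. The 5 tested genes shared by most leukocytes all had mean ratios above 0 (median 0.65), and none was called. The brightest of them were ITGB2, the beta 2 integrin chain, at 0.89 ± 0.75 (limma adjusted p = 0.112), and LAPTM5, a lysosomal protein of leukocytes, at 0.71 ± 0.57 (limma adjusted p = 0.108). The medians of these 5 genes in horses 1 to 4 were 1.26, 0.99, -0.07 and 0.48. Without horse 3, which had the lowest ratio of KLRD1, KLRD1 was at 0.83 (limma adjusted p = 0.0451), and a call made by leaving out the lowest horse is no separate evidence.

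TNFRSF13C encodes the receptor of B cells for the survival factor BAFF. Its level was 7.03, 7.04, 7.11 and 6.92 in the sarcoids and 6.93, 7.06, 7.02 and 6.72 in the skin of horses 1 to 4. The 2 groups overlapped, and no sample stood apart. Within horses the ratio was 0.11, -0.02, 0.10 and 0.20 (mean 0.10 ± 0.09, SD, n = 4; limma adjusted p = 0.604), with a 95% interval of -0.18 to 0.37. In the sarcoid channel the signal was 77 to 124 over local background, or 1.86 to 2.88 times the median of the negative control spots, and at such signals the offset of the background correction compresses a ratio.

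TNFSF13B, which encodes BAFF, the ligand of that receptor, rose in the sarcoids. Its ratios were 1.36, 1.56, 0.28 and 1.78 in horses 1 to 4, lowest in horse 3 (mean 1.24 ± 0.67, SD, n = 4; limma adjusted p = 0.0366). The call was lost without horse 1, 2 or 4 (limma adjusted p from 0.106 to 0.133) and kept without horse 3. It was also lost with no filter on dim probes (limma adjusted p = 0.0569), without the replicate block (0.136) and with the background fitted on all spots (ratio 0.87, limma adjusted p = 0.294). TNFSF13, the related ligand APRIL, was at 3.85 in horse 1 and at 0.58 to 1.19 in the others (limma adjusted p = 0.11). FCER2, the low-affinity IgE receptor of B cells, was at 1.19 in horse 3 and at -0.79 to -1.47 in the others, and it was well above background in 2 of 4 sarcoids. Of the 4 genes tested on the B and plasma cell list 1 rose and 3 were not called, with a median of 0.67. That median mixes the ligands TNFSF13B (1.24) and TNFSF13 (1.67) with TNFRSF13C (0.10) and FCER2 (-0.54), the receptors of B cells. It is thus no reading of B cells. PAX5 of that list was on the array but could not be tested.

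TPSB2 encodes tryptase beta 2, a serine protease of mast cell granules, and belongs to a family of close copies that can share probe signal. Its level was 6.29, 10.85, 10.91 and 9.05 in the sarcoids of horses 1 to 4 and 8.08, 9.77, 10.74 and 10.68 in their skin. The log2 ratio was -1.79, 1.08, 0.17 and -1.62, so the sarcoid was lower in 2 horses and higher in 2. The mean was -0.54 ± 1.40 (SD, n = 4; 95% interval -1.88 to 0.79; limma adjusted p = 0.544). In the sarcoid of horse 1 the spot had a signal of 69 over local background, against a 95th percentile of 50.4 for the negative control spots of that channel, and in the skin of the same horse it had 202, against 16.

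FCER1A encodes the alpha chain of the high-affinity IgE receptor, carried by mast cells and basophils and in some species by dendritic cells. The brighter of its 2 probes had a sarcoid level of 6.75, 10.60, 10.14 and 10.68 in horses 1 to 4 and a skin level of 9.85, 10.20, 11.18 and 11.15. The sarcoid of horse 1 stood far below the other 7 samples. The log2 ratio was -3.10, 0.41, -1.04 and -0.47 (mean -1.05 ± 1.49, SD, n = 4; 95% interval -2.47 to 0.37; limma adjusted p = 0.275). The second probe gave -2.59, 0.24, -1.03 and -0.63, which differed from the first by at most 0.51. The spread of FCER1A over horses was thus much wider than the difference between its probes, whose SD was 0.32. Without horse 1 the mean ratio was -0.37.

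In both TPSB2 and FCER1A horse 1 had the lowest ratio and horse 2 the highest. They differed in horse 3, where TPSB2 was at 0.17 and FCER1A at -1.04, and in horse 4, where TPSB2 was at -1.62 and FCER1A at -0.47. KIT, the stem cell factor receptor of mast cells and melanocytes, was the only other mast cell gene tested and was at -0.12, 0.37, -0.28 and -0.02. None of the 3 was called, and their median ratio was -0.54. Of 4 genes on a melanocyte list without KIT, 2 fell and 2 were not called (median -1.30), and their part in the KIT value was not tested. The genes with a symbol nearest in pattern to FCER1A were MMP3 (root mean square difference 0.80), GSDME (0.82) and IL1A (0.83).

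**Figure D3:**
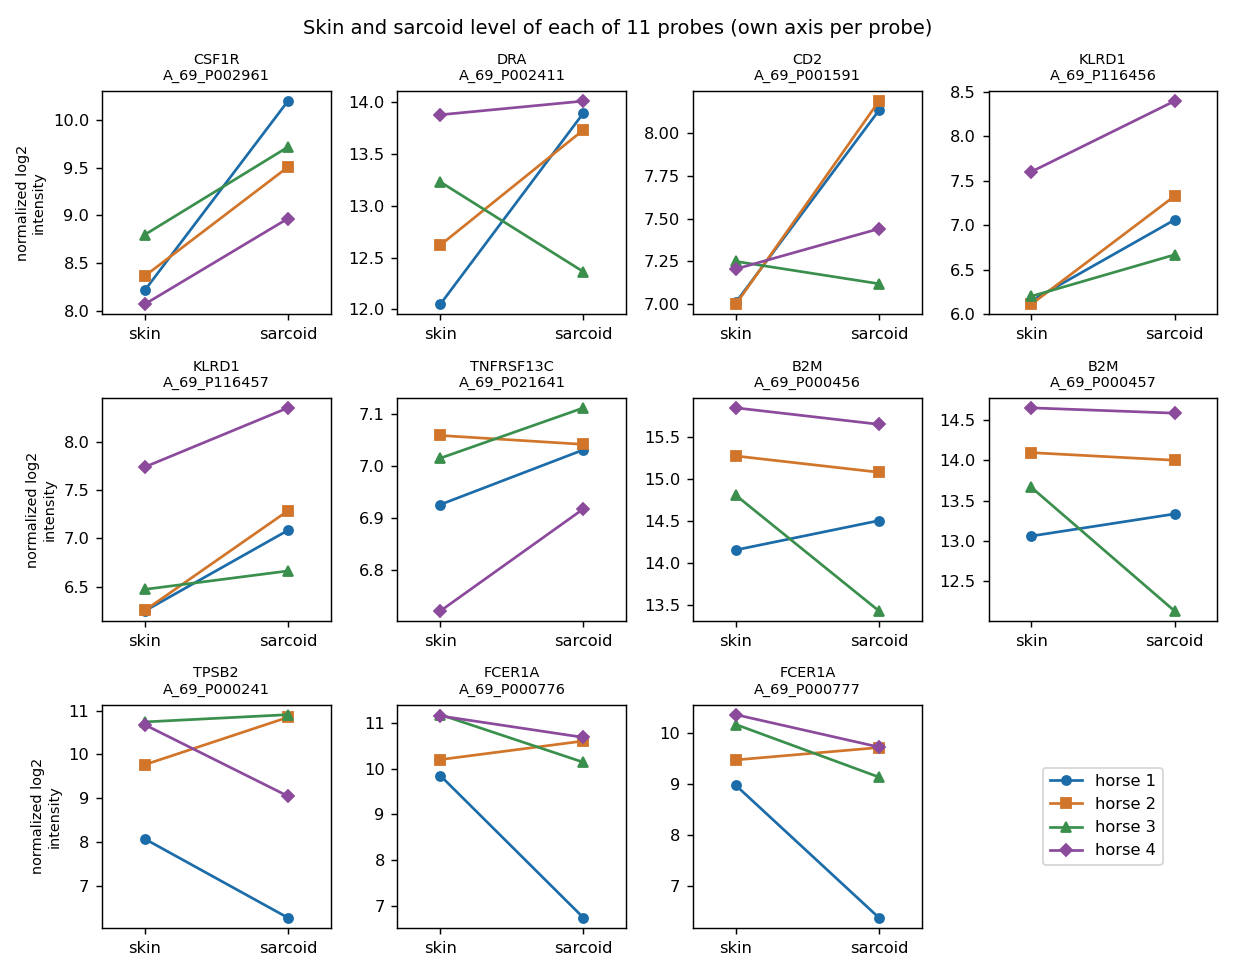
Normalized log2 intensity (y axis, a separate scale for each probe) in skin and sarcoid (x axis) for each of the 11 probes, with a line for each horse. CSF1R and KLRD1 climb from skin to sarcoid in all 4 horses, and DRA falls only in horse 3. FCER1A and TPSB2 drop steeply in horse 1, and TPSB2 also in horse 4.

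DRA, the alpha chain of the MHC class II molecule DR, had a level of 13.90, 13.73, 12.36 and 14.01 in the sarcoids of horses 1 to 4 and of 12.05, 12.62, 13.23 and 13.88 in their skin. The sarcoid of horse 3 was the low one, and in the skin horse 1 was lowest and horse 4 highest, so the groups overlapped. The log2 ratio was 1.85, 1.11, -0.87 and 0.13, with a mean of 0.56 ± 1.18 (SD, n = 4; 95% interval -0.58 to 1.69; limma adjusted p = 0.463). Without horse 3 the mean was 1.03 (limma adjusted p = 0.161), and without horse 1 it was 0.13.

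The other MHC class II genes tested were DRB, DQA and CD74, the invariant chain that escorts class II molecules to the peptide-loading compartment. CD74 had ratios of 2.16, 1.38, -0.87 and -1.32 in horses 1 to 4 (mean 0.34 ± 1.70). DQA was at 1.54, 1.15, -0.98 and -0.46, and DRB at 1.37, 0.85, -1.31 and -1.04. None of the 4 was called (median 0.32), and in all 4 the sarcoid was higher in horses 1 and 2 and lower in horse 3. MHC genes have near-identical copies, and DRB and DQA were matched through synonyms in the gene table, so their probes may read several genes.

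B2M, the light chain of MHC class I, was bright in every sample. Its brighter probe had a level of 14.50, 15.08, 13.43 and 15.65 in the sarcoids of horses 1 to 4 and of 14.15, 15.27, 14.80 and 15.85 in their skin. As ratios these gave 0.35, -0.19, -1.38 and -0.20 (mean -0.35 ± 0.73, SD, n = 4; 95% interval -1.08 to 0.38; limma adjusted p = 0.466). The second probe was at 0.27, -0.09, -1.54 and -0.07, within 0.16 of the first in each horse. The sarcoid of horse 3 was the lowest of the 8 samples, and without that horse the mean was -0.01. In the class I list none of 4 genes was called (median -0.34). The class I heavy chain MHCB3 was at 0.38, 0.52, -1.27 and -0.96, and EQMHCC1 at 0.37, -0.03, -1.25 and -0.59. MHCX1, another class I gene and the only one of the 4 with a mean above 0 (0.07), was at 0.55, 0.82, -0.33 and -0.75.

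The 8 genes did not keep one order across horses. CSF1R had the highest ratio in horses 1, 3 and 4, and CD2 in horse 2. FCER1A was lowest in horse 1, B2M in horses 2 and 3, and TPSB2 in horse 4. The median over the 8 genes was 0.59, 1.06, -0.02 and 0.16 in horses 1 to 4. Of the 28 pairs of genes 13 kept the same order in all 4 horses. CSF1R stood above 6 of the other 7, all but CD2, in all 4 horses. The difference was 2.29 ± 1.93 against FCER1A and 1.59 ± 0.52 against B2M (SD, n = 4; two-sided exact sign-flip p = 0.125 for each, the smallest that 4 arrays allow, and 0.269 after adjustment over the 28 pairs). DRA stood above B2M in all 4 horses, by 0.91 ± 0.58 (two-sided exact sign-flip p = 0.125, adjusted 0.269).

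Over the 9 lists of leukocyte and antigen presentation genes 36 genes could be tested, of which 3 rose (CSF1R, CD40 and TNFSF13B), none fell and 33 were not called. That is 8.33% called, all as higher, against 5.84% of all targets called as higher and 9.9% as lower, and the median ratio was 0.11. The 28 genes other than the 8 had 2 calls and a median of 0.09. The list of neutrophil and eosinophil genes had no member that could be named on the array. Fibroblast and keratinocyte genes moved far more in the same tissues, as given above, and their part in the leukocyte values was not tested. Of 5 endothelial genes 1 rose, VCAM1, and the medians of the 5 were 0.03, 1.59, -1.03 and 0.77 in horses 1 to 4.

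**Figure D4:**
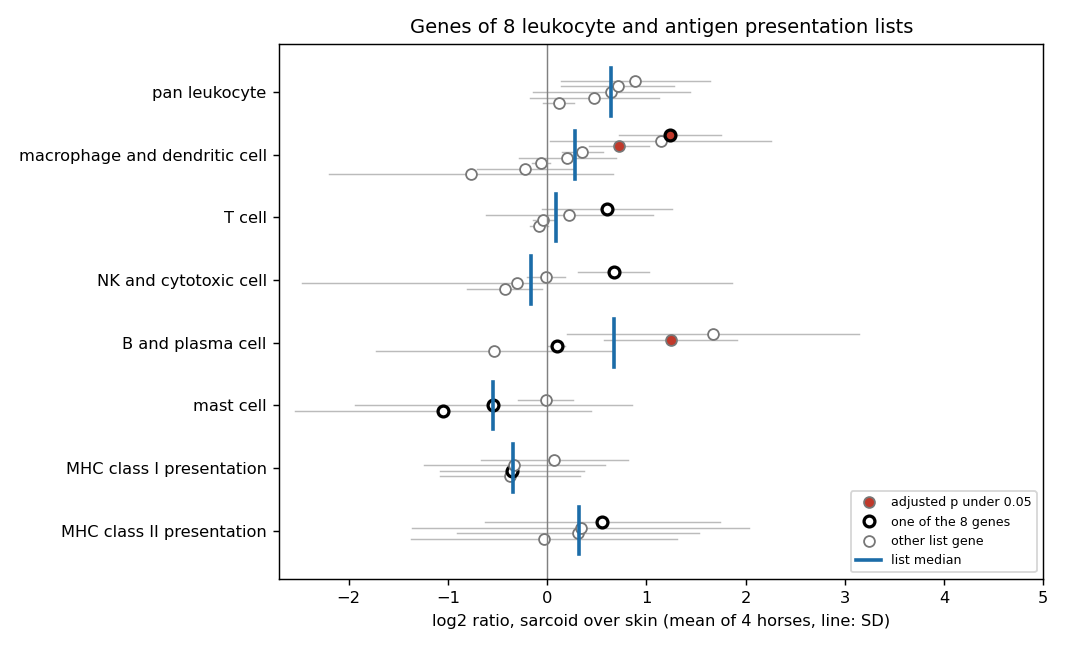
Mean log2 ratio of sarcoid over skin (x axis, grey line for the SD of 4 horses) of each tested gene of 8 leukocyte and antigen presentation lists (y axis); filled red symbols passed the limma adjusted p of 0.05, thick outlines mark the 8 genes, and a blue bar is the list median. The red symbols are CSF1R, CD40 and TNFSF13B, all above 0.

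**Figure D5:**
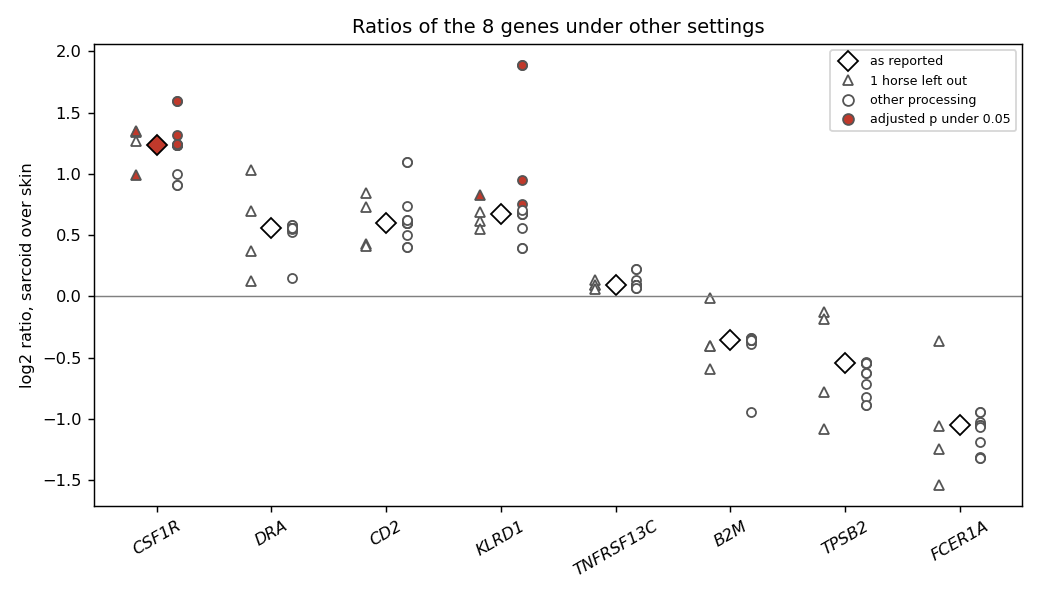
Log2 ratio of the 8 genes (x axis) as reported (diamond), with 1 horse left out (triangles) and under other processing (circles); red marks a limma adjusted p under 0.05. No gene changed sign, CSF1R ranged from 0.91 to 1.60 and KLRD1 from 0.40 to 1.89, and these 2 genes alone had settings with a call.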

How the data were processed

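The deposited scanner files hold the linear intensity of spot and local background for both channels. The submitters' processing notes name Agilent Feature Extraction, version 11.5.1.1. The processed intensities and the log10 ratio are the authors' deposited output of the same software, and the authors' value table holds that log10 ratio, Cy5 over Cy3 (largest difference 0), with array medians of 0, -0.00262, -0.0118 and 0. Other deposited columns are flags of 0 or 1 (values of a kind other than a measurement).

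Here the median spot signals were used. Spots marked as outliers were left out, background was corrected by normexp (offset 50), each array was normalized by loess without control spots, and ratios were turned to sarcoid over skin. A probe was kept if 1 channel was well above background on 3 or more of the 4 arrays, and a gene was represented by its brightest probe. Ratios were tested against 0 in limma 3.58.1 (R 4.3.3) over all targets; pairing by horse is inside the ratio. Accessions were named through the RefSeq gene table of assembly TB-T2T (2332 of 3437 RefSeq probes matched); 31502 probes with Ensembl IDs stayed unnamed, and no coordinates are given, since the array uses another build. The limma test alone was run on simulated independent ratios, which does not check the background or dye correction. The genes, lists and the order of the outlier step were chosen with earlier results of these data known. Named list genes were all that passed and the 2 brightest per list that did not; others (such as KIT, DRB, DQA, EQMHCC1, MHCX1, CD28, IL2RA) were named after their values were seen.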

Additional observations from a re-analysis of the deposited data

Results flagged for a closer look

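Among 46 sets of 4 values examined (ratios and levels of the 11 probes, and ratios of the named list genes), 4 had 1 horse far from the other 3 by Dixon's criterion for 4 values at the 95% level (the gap to the nearest value, as a share of the range); chance gives about 1 in 20 such sets, and levels were not scaled between arrays. The sarcoid level of DRA was 12.36 in horse 3, against 13.73 to 14.01 in the others. The sarcoid level of FCER1A by its brighter probe was 6.75 in horse 1, against 10.14 to 10.68. The skin level of KLRD1 was 7.60 by one probe and 7.74 by the other in horse 4, against 6.11 to 6.20 and 6.25 to 6.47 in the other horses.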

How the results depend on the processing

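Of the 8 genes, B2M, CD2, DRA, FCER1A, TNFRSF13C and TPSB2 kept their direction and stayed without a call in all 17 alternatives each, which a p above the threshold in so few arrays does not turn into evidence of no change. CSF1R kept its direction in 17 and its call in 12. It was at 0.91 with the background fitted on all spots, 0.91 with outlier spots kept and 1.0 on median centring, and between 0.99 and 1.35 with 1 horse left out. The 17 are not independent. Changes of the probe filter, the mean of probes and separate channels could not move the ratio of this 1-probe gene (1.24). The value table repeated the processed signals (1.60 in both), and keeping outlier spots repeated the fit on all spots. KLRD1 gained a call with Agilent's processed signals (1.89), the authors' value table (1.89), an offset of 16 (0.95) and the mean of its probes (0.76), and lay between 0.55 and 0.83 with 1 horse left out; it had no value when both channels had to be well above background on all 4 arrays. With the background fitted on all spots 93 targets were higher and 147 lower, and with outlier spots kept 94 and 147; the fitted background SD was then 1394 and 1536 in horse 3 and 495 and 177 in horse 2, against 0.09 to 1.57 without outlier spots, and the CSF1R ratio shrank in those 2 horses. Higher targets numbered 1887 with processed signals, 1876 with the value table and 614 on median centring, where the higher share of calls was 48.2%, 48.1% and 18.7%, against 37.1%. With 1 horse left out 389 to 820 targets were higher and 1077 to 1415 lower. The calls among the 36 list genes were 0 with the background fitted on all spots, 0 with outlier spots kept, 5 with processed signals, 5 with the value table, 1 on median centring and 0 to 5 with 1 horse left out (0 without horse 2, 1 without horse 1 or 4, 5 without horse 3). Modelling the channels separately, with the horse as replicate block, gave the same 1146 higher and 1941 lower targets. That model is the same paired test in another form, so its equal counts are no separate check. Without the block the counts were 928 and 1760. Background from the negative control spots, an alternative chosen after seeing the data, left CSF1R at 1.25 and called. Signals near the negative controls limit KLRD1 in the sarcoids and in the skin of horses 1 to 3, and TNFRSF13C in the sarcoids. They also limit CD2 in the sarcoids of horses 3 and 4, and TPSB2 and FCER1A in the sarcoid of horse 1.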

Other observations

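The MHC genes shared 1 order of horses that was noticed after their values were seen. Horses 1 and 2 both had ratios above those of horses 3 and 4. That held in 8 of 8 tested class I and class II presentation genes, each by its brightest probe. For B2M the margin is one that its rounded values do not show (-0.19 against -0.20). The second B2M probe broke the order, with -0.09 in horse 2 and -0.07 in horse 4. So did the brighter probe with Agilent's processed signals (-0.171 against -0.169). The same order held for 3 of 5 genes shared by most leukocytes, 2 of 4 T cell genes, 3 of 8 macrophage and dendritic cell genes, 1 of 4 natural killer and cytotoxic genes, 0 of 3 mast cell genes, 0 of 4 B and plasma cell genes, 2 of 4 keratinocyte genes, 2 of 9 fibroblast genes and 19.2% of all targets. The MHC probes may share signal between gene copies, so the 8 genes are not 8 independent readings, and all come from the same 4 arrays. BAFF (TNFSF13B) and its receptor TNFRSF13C were at mean ratios of 1.24 and 0.10 in the same samples. These means are not like readings. The TNFRSF13C signal in the sarcoids was 1.86 to 2.88 times the median of the negative control spots, where the offset compresses a ratio. The TNFSF13B call was lost in 7 of 17 alternative settings.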
